A study of Mus musculus with 36 samples.

Results

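The BMP receptors and coreceptors are 10 genes chosen by name: the type I receptors Bmpr1a, Bmpr1b, Acvr1, Acvrl1 and Acvr1b, the type II receptors Bmpr2, Acvr2a and Acvr2b, and the coreceptors Eng and Rgmb. They are 10 of the 51912 Ensembl gene IDs in the count tables, and the rule names them without a threshold on any measured value. All 10 passed the filter on low counts in every comparison.

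RNA-seq was performed on whole TA (tibialis anterior, a fast hindlimb muscle) and whole soleus (a slow one) from each genotype, WT and ∆Ig3-MuSK, and each of the 4 groups had 9 libraries. All mice were C57BL/6 and 3 months old. ∆Ig3-MuSK mice are homozygous for a CRISPR-Cas9 deletion of the Musk exons that encode the third immunoglobulin-like domain of MuSK. The founders were backcrossed to C57BL/6, and the deletion is constitutive, so it is present in every cell type and throughout life. No transgene, Cre or treatment is named for either genotype. According to the labels, the soleus libraries were made with the NEBNext Ultra kit and the TA libraries with the NEBNext Ultra II kit, so kit and muscle cannot be told apart in any comparison of soleus with TA.

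BMPs signal by bringing together type I and type II receptors, both of which are transmembrane serine/threonine kinases. The type II receptor phosphorylates the type I receptor, which then phosphorylates the Smad proteins that carry the signal to the nucleus. Bmpr1a, Bmpr1b, Acvr1 and Acvrl1 activate the BMP Smads (Smad1, Smad5 and Smad9), whereas Acvr1b is an activin and myostatin type I receptor that activates Smad2 and Smad3. MuSK, the muscle-specific kinase of the neuromuscular synapse, binds BMPs through the domain deleted here and acts as a BMP coreceptor in muscle.

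The promoters of 3 members are given here because Acvr1b and Bmpr1b had the widest differences between the muscles, in opposite directions, and Eng was the member that differed between genotypes. Each is the 250 bases before a RefSeq start site on GRCm38.p6, written 5′ to 3′ on the strand of the gene, and capitals mark the E-box motif CANNTG, which reads the same on both strands.

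Acvr1b, chr15:101173822-101174071, plus strand: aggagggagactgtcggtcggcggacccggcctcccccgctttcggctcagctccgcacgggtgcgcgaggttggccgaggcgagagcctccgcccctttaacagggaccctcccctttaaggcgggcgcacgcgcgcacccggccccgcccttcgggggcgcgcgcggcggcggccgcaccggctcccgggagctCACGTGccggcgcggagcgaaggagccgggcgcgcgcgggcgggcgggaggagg

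Bmpr1b, chr3:141982265-141982514, minus strand, the first of 3 listed starts: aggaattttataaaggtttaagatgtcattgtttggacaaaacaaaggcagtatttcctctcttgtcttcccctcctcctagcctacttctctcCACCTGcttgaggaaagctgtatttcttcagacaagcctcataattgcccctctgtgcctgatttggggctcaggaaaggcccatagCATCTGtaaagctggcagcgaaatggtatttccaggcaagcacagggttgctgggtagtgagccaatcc

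Eng, chr2:32646345-32646594, plus strand: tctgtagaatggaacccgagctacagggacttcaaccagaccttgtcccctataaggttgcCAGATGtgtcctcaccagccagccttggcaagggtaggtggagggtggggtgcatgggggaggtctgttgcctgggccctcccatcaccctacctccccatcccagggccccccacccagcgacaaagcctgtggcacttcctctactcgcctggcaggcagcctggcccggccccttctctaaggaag

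The Acvr1b window held 1 E-box, CACGTG, and 78.8% of its bases were G or C. The printed Bmpr1b window held 2 E-boxes and was 46.8% G or C. The windows of its other listed starts held 0 and 1, at 52.8% and 56.4% G or C. Which start these muscles use was not measured. The Eng window held 1 E-box and was 62.4% G or C. E-boxes were present in 66.2% of the 32851 promoter windows of the same length in the table, so a match is common. No binding or chromatin was measured in these samples, and the matches are a description of the sequence. Of the 10 members, 9 were in the promoter table, and Acvrl1 was the exception.

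The members lie on chromosomes 1, 2, 3, 9, 14, 15 and 17 of GRCm38. Acvrl1 (ENSMUSG00000000530, chr15:101128522-101145336) and Acvr1b (ENSMUSG00000000532, chr15:101174067-101213684) are neighbours on the plus strand. The libraries held no strand information, and the exons of 4 members overlap those of a gene on the other strand. Reads from these stretches could belong to either gene. The overlap covered 7.84% of the exon bases of Acvr2a (with Orc4), 4.57% of those of Bmpr1a (with Gm17110), 2.98% of those of Acvrl1 (with Gm16031) and 1.51% of those of Eng (with Fpgs).

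Total counts ranged from 43492062 to 78660422 per library. Every member had at least 111 counted reads in each library. Fiber genes followed the muscle labels, since 6 of 6 slow fiber markers were higher in WT soleus than in WT TA and 7 of 8 fast fiber markers were lower. Musk, counted over all its exons, stood at 4.25 ± 0.948 CPM (read counts scaled to library size, SD, n = 9) in WT TA, 3.09 ± 0.391 in ∆Ig3-MuSK TA, 15.2 ± 1.82 in WT soleus and 11.3 ± 3.29 in ∆Ig3-MuSK soleus. Between genotypes, edgeR's quasi-likelihood test gave log2 fold changes of -0.46 for the TA (adjusted p = 0.135) and -0.44 for the soleus (adjusted p = 0.0978), which missed the threshold. DESeq2 called Musk in both muscles (-0.47, adjusted p = 0.0248, and -0.44, adjusted p = 0.0417), and so did limma-voom (adjusted p = 0.0275 and 0.0371). EdgeR did not call a difference in this genotype effect between the muscles (0.04 on the log2 scale, adjusted p = 0.915). Reads on the deleted exons were not counted apart from the rest, so the gene total is not a check of the genotype labels. The mutant transcript lacks these exons, so its total over all exons would be lower at an unchanged transcript level. How much of the Musk difference this makes up was not tested.

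**Figure D1:**
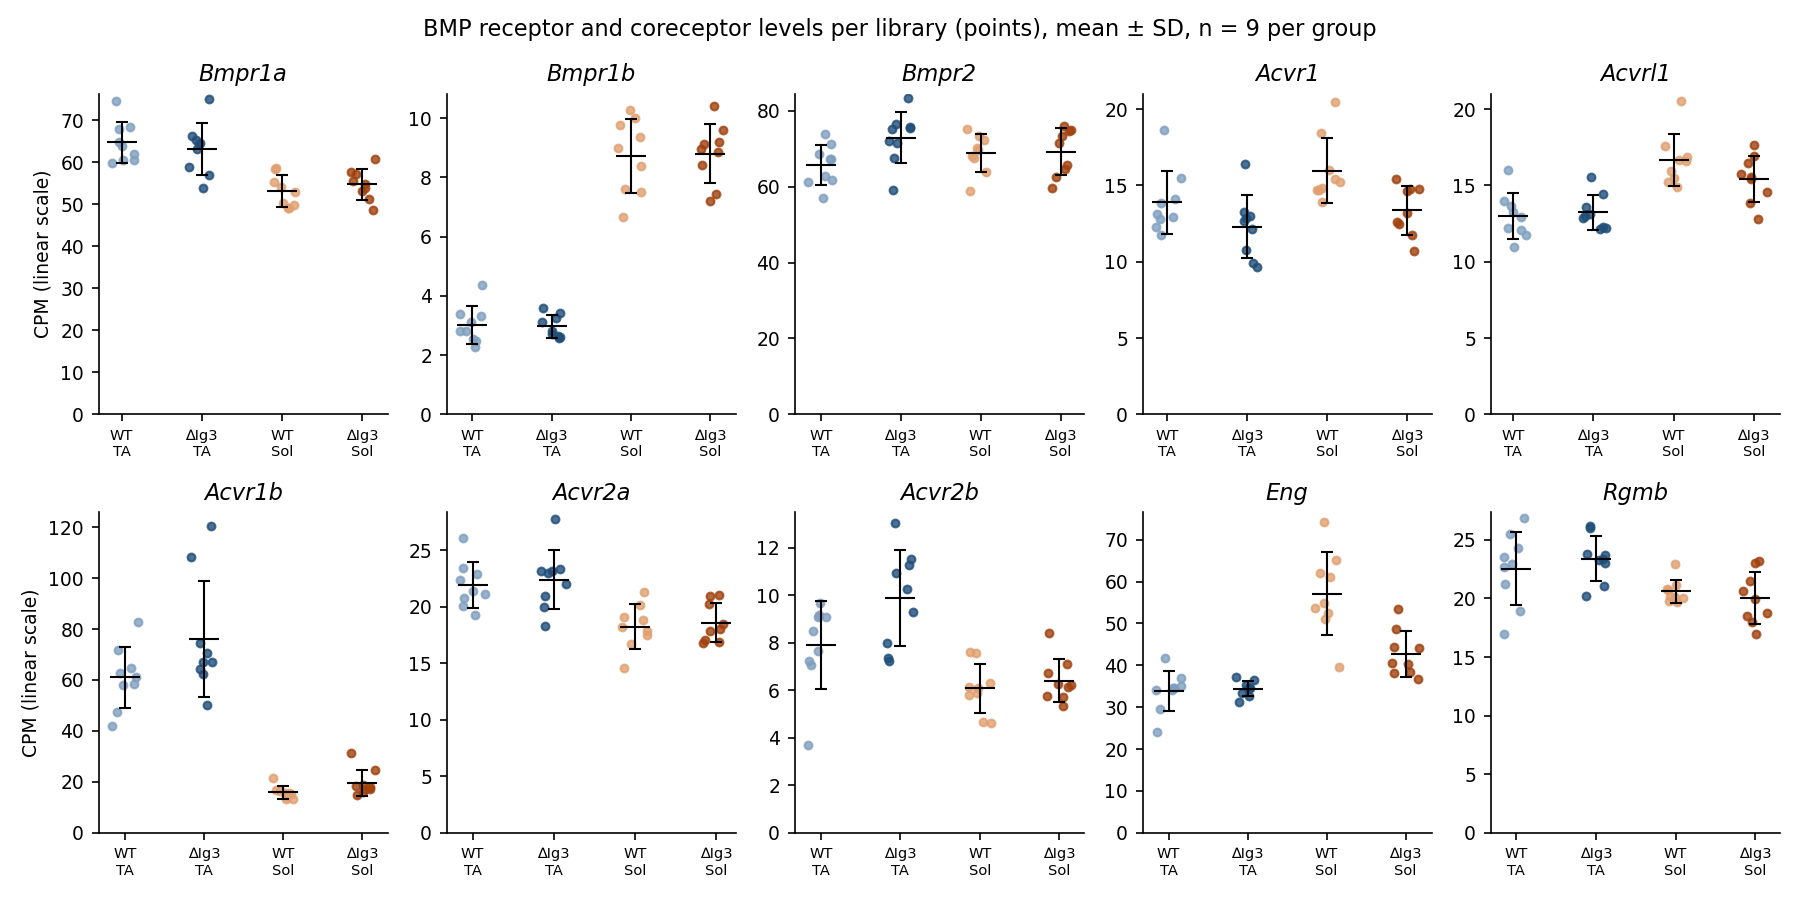
Levels of the 10 members in CPM (linear axis from 0) in each of the 36 libraries, with the mean and SD of 9 libraries per group in black. ∆Ig3 stands for ∆Ig3-MuSK and Sol for soleus. Bmpr1b in the soleus (6.66 to 10.4 CPM) lies above every TA library (at most 4.36), Acvr1b lies the other way, and Eng in ∆Ig3-MuSK soleus lies below the WT soleus mean in every library.

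How the members rank was asked first, on CPM per kb of exon, which scales the levels of different genes by length. The length is that of all annotated exons, used in muscle or not, so ranks and shares depend on the annotation. In WT TA, Acvr1b led with 13.8 ± 2.73 CPM per kb (SD, n = 9), followed by Bmpr1a, the broadly expressed BMP type I receptor, with 10.2 ± 0.762 and Eng, an endothelial coreceptor of Acvrl1, with 8.36 ± 1.198. The ranges of neighbours among these 3 overlapped. The range of Eng did not overlap that of the next gene, Acvr2a, at 3.86 ± 0.360. Acvr2a, Bmpr2, Acvrl1, Rgmb, Acvr1 and Acvr2b followed in an order in which each overlapped the next, and Bmpr1b was last and apart from the others at 0.505 ± 0.107. The ∆Ig3-MuSK TA had the same first 3 genes and the same last gene, and there Bmpr2 stood at 4.06 ± 0.373 and Acvr2a at 3.94 ± 0.464, with overlapping ranges.

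The soleus had another order. Eng was highest in WT soleus at 14.1 ± 2.44 CPM per kb, and its range did not overlap that of Bmpr1a at 8.35 ± 0.599. Acvr1b, first in the TA, took rank 5 in WT soleus with 3.59 ± 0.553 CPM per kb, in a run of 6 genes from Acvrl1 (3.90 ± 0.398) to Rgmb (2.69 ± 0.131) in which each range overlapped the next. Bmpr1b was again last, at 1.46 ± 0.211, but its range overlapped that of Acvr2b, at 1.55 ± 0.266. In ∆Ig3-MuSK soleus, Eng (10.6 ± 1.36) and Bmpr1a (8.61 ± 0.571) did overlap.

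Within the type I receptors, Acvr1b made up 45.0% ± 4.93 (SD, n = 9) of the summed CPM per kb in WT TA and 17.4% ± 2.41 in WT soleus. The libraries of the muscles did not overlap, with 35.7% the lowest share in WT TA and 23.0% the highest in WT soleus. The BMP type I receptors had the rest. Bmpr1a held 33.7% ± 4.12 in WT TA and 40.5% ± 2.55 in WT soleus, Acvrl1 10.1% ± 1.18 and 18.9% ± 1.82, Acvr1 9.51% ± 1.49 and 16.0% ± 1.95, and Bmpr1b 1.67% ± 0.362 and 7.10% ± 0.974. Shares sum to a constant, so a lower share of Acvr1b raises the others. In ∆Ig3-MuSK muscle the Acvr1b share was 50.8% ± 6.97 for TA and 21.03% ± 4.19 for soleus libraries.

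The type II receptors were more alike in the muscles. Bmpr2 held 38.5% ± 2.41 of their summed CPM per kb in WT TA and 44.7% ± 2.50 in WT soleus. Acvr2a held 40.6% ± 2.73 and 37.4% ± 1.199, and Acvr2b 20.9% ± 3.83 and 17.96% ± 2.30. The ranges of the muscles overlapped for each of these 3 shares.

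**Figure D2:**
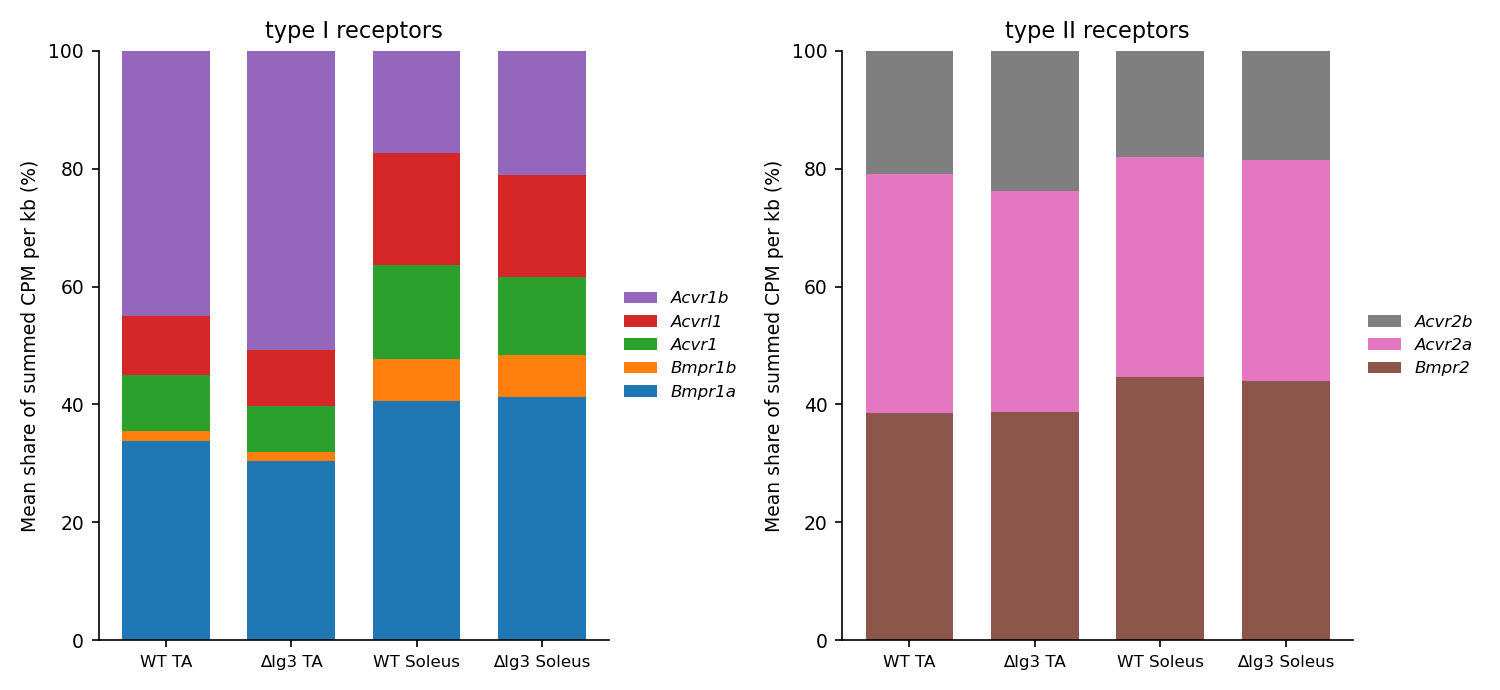
Mean share (%) of each gene in the summed CPM per kb of the type I receptors (left) and of the type II receptors (right) in each group, n = 9 libraries per bar. The Acvr1b share is 45.0% in WT TA and 17.4% in WT soleus, while the shares of Bmpr2 (38.5% and 44.7%) are closer.

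The soleus was compared with the TA in WT mice to ask which members differ between slow and fast muscle. Of the 10 members, 7 were called at an adjusted p under 0.05 and at least a 1.2-fold change, 3 higher and 4 lower in the soleus. The background was high, since 57.5% of the 20841 genes tested were called in this comparison, 30.2% higher and 27.3% lower, so the count for the members is near that of genes in general. The median log2 fold change was -0.03 over the members and 0.02 over all genes tested. Adjusted p-values here and in the following are from edgeR's quasi-likelihood test, adjusted over all genes tested.

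Bmpr1b, a BMP type I receptor best known from cartilage and ovary, was higher in the soleus. It ranged from 2.26 to 4.36 CPM (median 2.81) in WT TA and from 6.66 to 10.3 CPM (median 8.98) in WT soleus. The groups did not overlap, as was the case for 28.3% of all genes in this comparison. The difference was 2.89-fold, or 1.53 on the log2 scale (SE 0.101, adjusted p = 3.88e-16).

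Acvr1b, an activin type I receptor also called ALK4, was lower in the soleus. It ranged from 42.1 to 82.7 CPM (median 61.0) in WT TA and from 13.4 to 21.6 CPM (median 15.6) in WT soleus. Every soleus library lay below every TA library, and the level was 3.85-fold lower (log2 fold change -1.94, SE 0.148, adjusted p = 2.47e-14). Its neighbour on chromosome 15, Acvrl1, differed in the other direction.

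Eng (endoglin) ranged from 24.1 to 41.7 CPM (median 34.5) in WT TA and from 39.5 to 74.1 CPM (median 54.9) in WT soleus. All but 1 of the soleus libraries lay above the highest TA library. The level was 1.69-fold higher in the soleus (log2 fold change 0.75, SE 0.0877, adjusted p = 1.29e-09). Acvrl1 (ALK1), the endothelial type I receptor that Eng assists, ranged from 10.96 to 16.0 CPM (median 13.0) in WT TA and from 14.9 to 20.6 CPM (median 16.6) in WT soleus. Its ranges overlapped, and it was 1.28-fold higher in the soleus (log2 fold change 0.36, SE 0.0672, adjusted p = 1.51e-05).

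The 3 other members called were lower in the soleus by smaller amounts. Bmpr1a ranged from 59.8 to 74.5 CPM in WT TA and from 49.0 to 58.6 CPM in WT soleus, without overlap, and was 1.22-fold lower (log2 fold change -0.29, SE 0.0541, adjusted p = 1.62e-05). The activin type II receptors Acvr2a and Acvr2b overlapped between the muscles. Acvr2a was 1.202-fold lower (log2 fold change -0.27, SE 0.0690, adjusted p = 0.000945), just past the fold minimum, and its call was lost, with log2 fold changes of -0.26 to -0.23, without WT soleus replicate 1, 5, 7 or 8 or WT TA replicate 1, 3, 7 or 9. Acvr2b was 1.30-fold lower (log2 fold change -0.38, SE 0.132, adjusted p = 0.0108). It was called in 7 of 8 alternative fits, and the exception is given at the end.

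Bmpr2, the BMP type II receptor, Acvr1 (ALK2), a BMP type I receptor, and Rgmb, a membrane-anchored BMP coreceptor, missed the call. Bmpr2 had the smallest difference, from 65.7 ± 5.38 CPM in WT TA to 68.8 ± 5.03 in WT soleus (log2 fold change 0.07, adjusted p = 0.323). Acvr1 stood at 13.9 ± 2.09 and 16.0 ± 2.12 CPM (log2 fold change 0.20, adjusted p = 0.0526). Rgmb stood at 22.5 ± 3.10 and 20.6 ± 1.01 CPM (log2 fold change -0.13, adjusted p = 0.0866).

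In ∆Ig3-MuSK mice, 5 of 10 members were called between soleus and TA, 2 higher and 3 lower, against 56.1% of all genes tested (28.5% higher, 27.6% lower). Bmpr1b was 2.97-fold higher in the soleus (adjusted p = 2.00e-16) and Acvr1b 3.88-fold lower (adjusted p = 2.00e-14). For both genes the muscles did not overlap, as for 29.4% of all genes. Eng was 1.24-fold higher (log2 fold change 0.31, SE 0.0874, adjusted p = 0.00211), Acvr2b 1.54-fold lower (-0.62, SE 0.131, adjusted p = 7.76e-05) and Acvr2a 1.21-fold lower (-0.27, SE 0.0689, adjusted p = 0.000795). Acvr2a lost its call, at -0.26 to -0.23, without ∆Ig3-MuSK soleus replicate 4, 5, 8 or 9 or ∆Ig3-MuSK TA replicate 7. It was called in 7 of 8 alternative fits, with the exception (-0.24) given at the end. Acvrl1 (0.22), Bmpr1a (-0.21) and Rgmb (-0.22) passed the p threshold but not the fold minimum, and all 8 such members would be called without it. The mutant and WT comparisons use different libraries, and whether they differ was tested by the interaction given below.

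**Figure D3:**
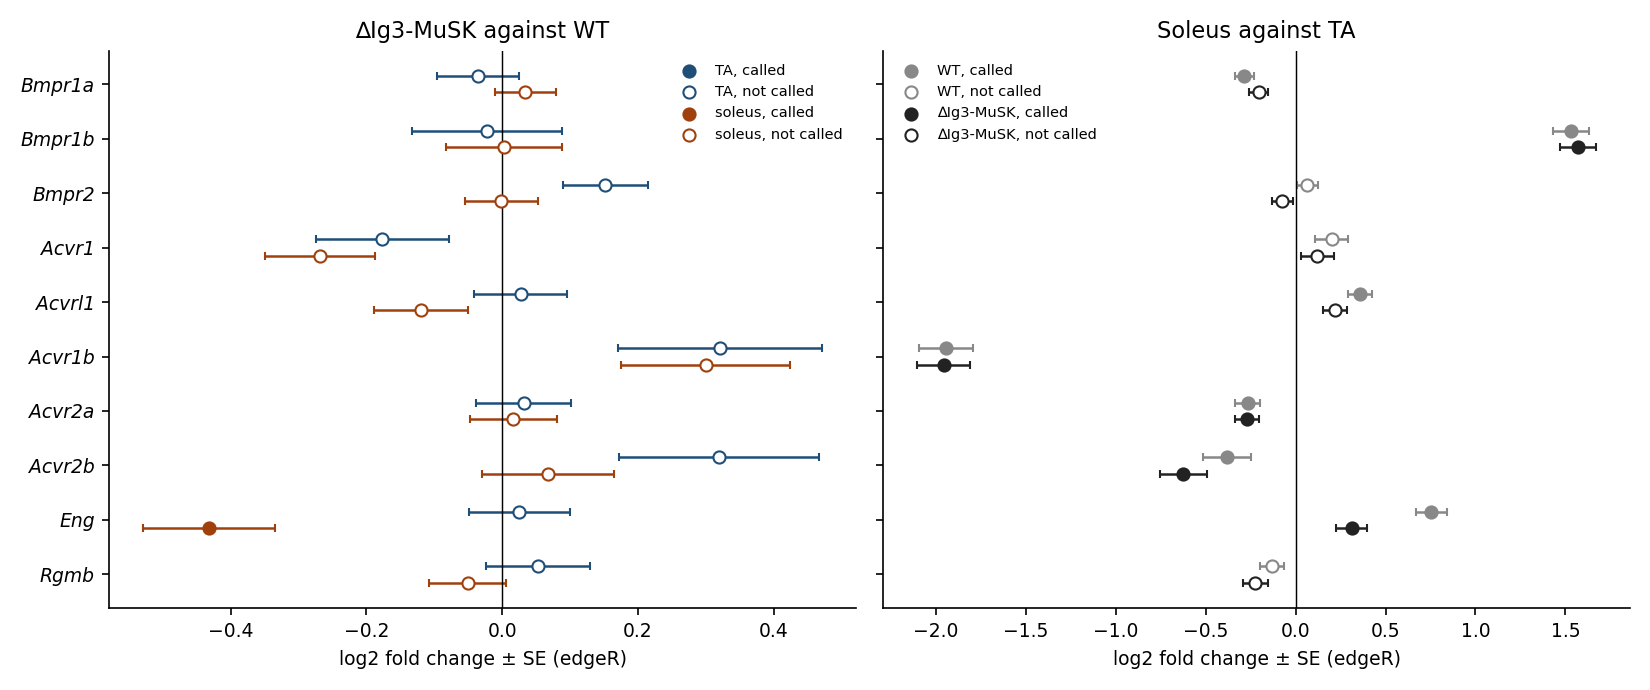
Log2 fold change ± SE of the 10 members from edgeR's quasi-likelihood fit, for ∆Ig3-MuSK against WT (left) and soleus against TA (right). Filled points are called, open points are not, and the horizontal scales of the panels differ. Between genotypes Eng in the soleus (-0.43) is the filled point, whereas between muscles Bmpr1b (1.53 in WT) and Acvr1b (-1.94 in WT) lie far from 0 in both genotypes.

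The genotypes were compared within each muscle to ask whether removal of the BMP-binding domain of MuSK goes with other levels of the receptors. In the soleus, 1 of 10 members was called, Eng, which was downregulated. Over all genes, 0.952% of the 19439 tested were called, and 0.586% were called lower. The median log2 fold change was 0.00 over the members and -0.00 over all genes tested. Unadjusted p-values were under 0.05 for 3 members, against 18.5% of all genes.

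Eng ranged from 39.5 to 74.1 CPM (median 54.9) in WT soleus and from 36.7 to 53.4 CPM (median 40.5) in ∆Ig3-MuSK soleus. The ranges overlapped, but all 9 mutant libraries lay below the WT mean and 3 of them lay below the lowest WT library. The level was 1.35-fold lower in the mutant (log2 fold change -0.43, SE 0.0973, adjusted p = 0.0364). The call depended on the libraries in the fit, as did the number of calls over all genes. It was lost in 13 of the 18 fits that left out 1 library, with adjusted p between 0.0106 and 0.0737 and log2 fold changes between -0.49 and -0.38. It held without WT soleus replicate 1 or 2 and without ∆Ig3-MuSK soleus replicate 6, 7 or 9. Over all genes, the fits that lost it called 22 to 139 genes (0.112% to 0.713%). Those that kept it called 201 to 602 (1.03% to 3.08%), against 185 with all libraries.

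Eng is made chiefly by endothelial cells, so the levels of 10 endothelial markers are given beside it. None of the 10 was at 0 in any group, and edgeR called 0 of 10 between genotypes in the soleus (median log2 fold change -0.12, 2 with an unadjusted p under 0.05), whereas DESeq2 called 1, Kdr (-0.43, adjusted p = 0.0299). Their summed level ranged from 439 to 579 CPM in WT soleus and from 399 to 534 CPM in ∆Ig3-MuSK soleus. The mean log2 CPM of the markers was 0.15 lower in the mutant (5.41 ± 0.119 and 5.26 ± 0.145, exact permutation test, 2-sided, p = 0.0266, n = 9). Relative to that mean, Eng stood at 0.40 ± 0.223 in WT and 0.15 ± 0.119 in ∆Ig3-MuSK on the log2 scale (SD, n = 9). The difference was -0.25 (exact permutation test, 2-sided, p = 0.00757), in a test chosen after seeing the data. Beside -0.43 for Eng, the 10 markers had edgeR log2 fold changes from -0.42 (Kdr) to 0.01 (Flt1). Of these, 8 were below 0 and 2 above, and Cldn5 (-0.39) was the second lowest. How much of the Eng difference goes with endothelial content was not tested. In whole muscle, fewer cells of a type and less RNA per cell cannot be told apart.

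Markers of other cell types are given beside it too. The summed fibro-adipogenic and fibroblast markers ranged from 589 to 1664 CPM in WT and from 354 to 943 CPM in ∆Ig3-MuSK. Of these 6, edgeR called 0, with 2 at an unadjusted p under 0.05, and DESeq2 called 1, Col1a1, which was lower (-0.97). The tendon markers ranged from 257 to 674 CPM and from 23.9 to 454 CPM. Of these 4, edgeR called 0, with 2 at an unadjusted p under 0.05, and DESeq2 called 1, Scx, which was lower (-0.48). Of the 6 pericyte and smooth muscle markers, Acta2 was called lower (-0.38, adjusted p = 0.0496), and of the 5 neuron markers, Syt1 was called higher (0.84, adjusted p = 0.0390), where DESeq2 called 2 of 6 and 3 of 5. EdgeR called 0 adipocyte, Schwann, macrophage and leukocyte, or satellite cell markers. Higher in the mutant were 4 of 4 adipocyte markers (median log2 fold change 0.62) and 6 of 6 Schwann markers (0.17). Lower were 5 of 5 macrophage and leukocyte markers tested (-0.37), and the 4 satellite cell markers were split, 2 higher and 2 lower. The part of these shifts in the Eng result was not tested.

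**Figure D4:**
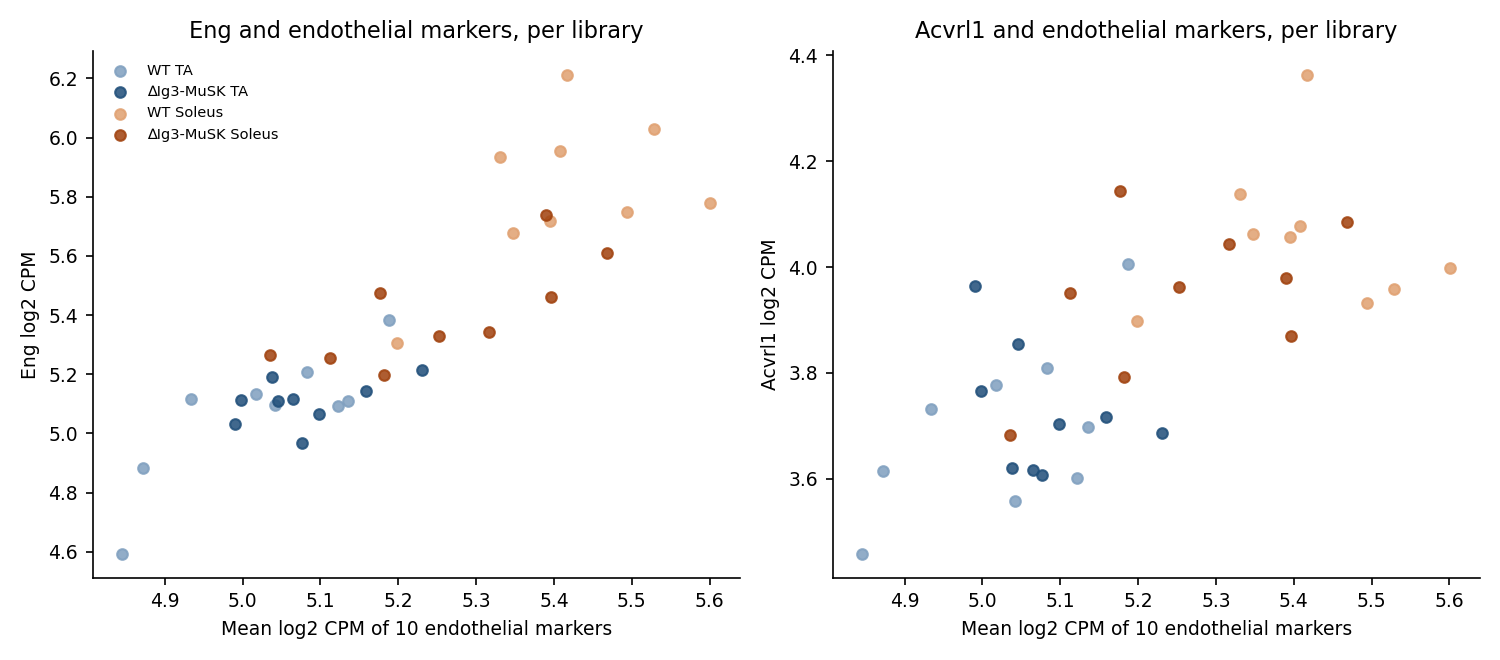
Log2 CPM of Eng (left) and Acvrl1 (right) against the mean log2 CPM of 10 endothelial markers, 1 point per library, 36 libraries coloured by group. The mean difference of Eng from the markers is 0.40 in WT soleus and 0.15 in ∆Ig3-MuSK soleus, though single libraries of these groups overlap, and that of Acvrl1 is -1.36 and -1.31.

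Acvr1, the receptor whose activating mutation causes heterotopic bone, had the second smallest p among the members in the soleus. It ranged from 13.9 to 20.5 CPM (median 15.3) in WT and from 10.7 to 15.5 CPM (median 13.2) in ∆Ig3-MuSK. All 9 mutant libraries lay below the WT mean and 5 lay below the lowest WT library, and the log2 fold change was -0.27 (SE 0.0809, adjusted p = 0.0941), which is not called. DESeq2, the tool used by the study, called it (adjusted p = 0.0471), as it did 2.34% of the 20873 genes given an adjusted p.

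Acvr1b ranged from 13.4 to 21.6 CPM (median 15.6) in WT soleus and from 14.8 to 31.3 CPM (median 18.2) in ∆Ig3-MuSK soleus. It had a log2 fold change of 0.30 (SE 0.124, adjusted p = 0.201). Of the mutant libraries 8 lay above the WT mean, and 2 lay above the highest WT library. Acvrl1, the partner of Eng, had a log2 fold change of -0.12 (SE 0.0687, adjusted p = 0.368). The other 6 members lay between -0.05 and 0.07 on the log2 scale, with adjusted p of 0.673 or higher.

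In the TA, 0 of 10 members were called by edgeR, DESeq2 or limma-voom between genotypes, against 0.0149% of the 20075 genes tested with edgeR, 1.12% with DESeq2 and 0.747% with limma-voom. Unadjusted p-values were under 0.05 for 3 members, all of them higher in ∆Ig3-MuSK, and for 24.1% of all genes (12.2% higher). The median log2 fold change was 0.03 over the members and -0.00 over all genes tested.

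Those 3 members were Acvr1b, Acvr2b and Bmpr2. Acvr1b ranged from 42.1 to 82.7 CPM (median 61.0) in WT TA and from 50.3 to 120.6 CPM (median 67.2) in ∆Ig3-MuSK TA. Of the mutant libraries 2 lay above the WT maximum, and the log2 fold change was 0.32 (SE 0.150, adjusted p = 0.199). Acvr2b, a receptor of myostatin and activins, ranged from 3.69 to 9.67 CPM (median 8.48) in WT and from 7.24 to 13.0 CPM (median 10.3) in the mutant (log2 fold change 0.32, SE 0.147, adjusted p = 0.196). Bmpr2 ranged from 57.1 to 74.0 CPM (median 67.3) and from 59.2 to 83.3 CPM (median 75.3), with 5 mutant libraries above the WT maximum (log2 fold change 0.15, SE 0.0625, adjusted p = 0.171). None of these differences held after adjustment over all genes.

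Eng was close between genotypes in the TA. It ranged from 24.1 to 41.7 CPM (median 34.5) in WT TA and from 31.3 to 37.1 CPM (median 34.6) in ∆Ig3-MuSK TA (log2 fold change 0.03, SE 0.0743, adjusted p = 0.850). The summed endothelial markers ranged from 338 to 440 and from 401 to 445 CPM. Acvr1 was at 13.9 ± 2.09 and 12.3 ± 2.06 CPM (log2 fold change -0.18, SE 0.0978, adjusted p = 0.262). Bmpr1a, Bmpr1b, Acvrl1, Acvr2a and Rgmb lay between -0.03 and 0.05 on the log2 scale.

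Whether the genotype difference itself differed between the muscles was tested by the interaction. With edgeR, 0 of 10 members were called, and 0% of the 20841 genes tested were. At an unadjusted p under 0.05 there were 1 member and 24.9% of all genes. That member was Eng, with an interaction of -0.44 on the log2 scale (SE 0.124, unadjusted p = 0.000939, adjusted p = 0.102). DESeq2 (-0.43, adjusted p = 0.0391) and limma-voom (-0.41, adjusted p = 0.0249) called it. DESeq2 called 8.41% of the 10171 genes to which it gave an adjusted p, and limma-voom 4.6% of the 20841 tested. These shares have unlike bases. For the other 9 members the interaction lay between -0.24 (Acvr2b) and 0.08 (Bmpr1a), with adjusted p of 0.278 or higher.

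Relative to the endothelial markers, Eng and Acvrl1 differed between the muscles in another way than in CPM. The mean log2 CPM of the markers was 0.39 higher in WT soleus than in WT TA (exact permutation test, 2-sided, p = 4.11e-05, the smallest possible, n = 9), and 8 of 10 markers were called, 7 of them higher. Eng relative to the markers was 0.36 higher in WT soleus (exact permutation test, p = 0.000535, n = 9) and 0.12 higher in ∆Ig3-MuSK soleus (exact permutation test, p = 0.0218, n = 9). Acvrl1 relative to the markers differed by -0.03 in WT (exact permutation test, p = 0.713, n = 9) and 0.04 in ∆Ig3-MuSK (exact permutation test, p = 0.609, n = 9).

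TA and soleus libraries share a label number in 8 cases for WT and 8 for ∆Ig3-MuSK. The study does not say whether TA and soleus came from the same animals, so a shared number may or may not be a shared mouse. The mutant Acvr1b values stood out in this respect. The ∆Ig3-MuSK libraries of 2 label numbers were the highest in the TA, at 120.6 and 108.4 CPM, and also the highest in the soleus, at 31.3 and 24.7 CPM. The other ∆Ig3-MuSK numbers lay between 50.3 and 74.5 CPM in the TA and between 14.8 and 18.4 CPM in the soleus. Over all 16 numbers, each library taken from the mean of its muscle and genotype, Pearson's r was 0.536 (permutation p = 0.0504, adjusted over 10 members 0.148), Spearman's rho was 0.347 (permutation p = 0.203, adjusted 0.407), and r was 0.0265 without the 2 numbers farthest from the median in the TA. Within WT, r was -0.266, and within ∆Ig3-MuSK it was 0.892, each over 8 numbers.

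Acvr1 and Bmpr1b had the highest r. For Acvr1, r was 0.645 (permutation p = 0.0119, adjusted 0.0928), rho was 0.615 (permutation p = 0.0157, adjusted 0.0787), and r was 0.398 without the 2 farthest numbers. Within WT its r was 0.896, and within ∆Ig3-MuSK 0.371. For Bmpr1b, r was 0.609 (permutation p = 0.0186, adjusted 0.0928), rho was 0.638 (permutation p = 0.0130, adjusted 0.0787), and r was 0.479 without the 2 farthest. Within WT its r was 0.842, and within ∆Ig3-MuSK 0.176. None of the 10 members passed an adjusted p of 0.05, and for Eng r was 0.172 (permutation p = 0.581).

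**Figure D5:**
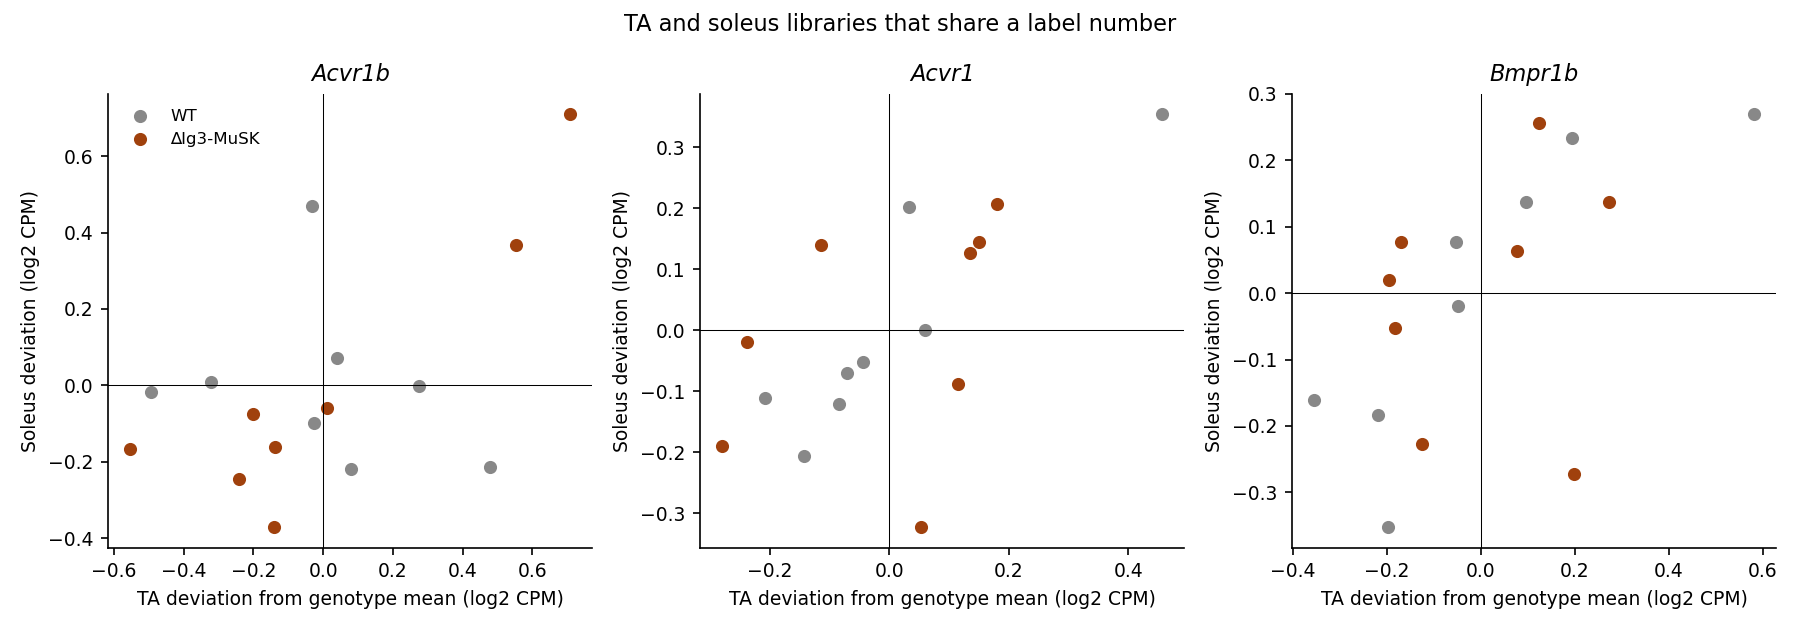
Deviation of the soleus library (vertical) and of the TA library (horizontal) from the mean of its genotype, in log2 CPM, for Acvr1b, Acvr1 and Bmpr1b, with 1 point for each of the 16 label numbers found in both muscles. For Acvr1b the upper right holds these 2 ∆Ig3-MuSK numbers (0.71 and 0.55 in the TA, 0.71 and 0.37 in the soleus), away from the others.

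Some members also varied together across libraries. With each group's mean removed, the pairs with the highest r of log2 CPM over 36 libraries were Acvr2b and Rgmb (0.671), Acvrl1 and Eng (0.610) and Acvr1 and Eng (0.597). Among 15499 genes with a mean of at least 1 CPM, the closest to Eng were Col4a2, a collagen chain of basement membranes (r = 0.817), and Mcc (0.813). The closest to Acvrl1 were Tmem200b (0.836) and Thbd, the endothelial anticoagulant receptor thrombomodulin (0.799). For Acvr1b they were Gm21955 (0.909) and Prodh, proline dehydrogenase (0.894), and for Bmpr2 Taok1 (0.886) and Dmxl1 (0.882).

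Rgmb was closest to Gm45278 (0.839) and Heyl, a target of Notch (0.816), Acvr2b to Bahcc1 (0.826) and Grip2 (0.763), and Acvr1 to Irs1, an insulin receptor substrate (0.801), and Abtb2 (0.765). Bmpr1a was closest to Ireb2 (0.734) and Mtmr1 (0.715), Acvr2a to Mfsd4b3 (0.675) and Alkbh8 (0.658), and Bmpr1b to Shroom4 (0.593) and Adamts6 (0.570). Within single groups, r was uneven for some pairs. It ran from 0.418 to 0.978 for Rgmb and Gm45278 and from 0.331 to 0.860 for Acvr2b and Grip2. For Bmpr2 and Taok1 it ran from 0.880 to 0.941. These correlations are descriptions over libraries that share depth and handling, and carry no test.

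The rest of the pathway was given by lists of its ligands, inhibitors, receptors, Smads and targets. Between genotypes, edgeR called 0 genes of the 6 lists in either muscle. Beside Musk, DESeq2 and limma-voom both called 2 in the soleus, Inhba, an activin subunit, which was lower (-0.49 with DESeq2, adjusted p = 0.0425), and Car3, a carbonic anhydrase on the list of targets, which was higher (0.48, adjusted p = 0.0167). At an unadjusted p under 0.05 in the soleus there were 2 of 7 BMP ligands, 1 of 5 activin and myostatin ligands, 4 of 11 secreted antagonists, 1 of 10 other receptors and coreceptors, 2 of 10 Smads and Smurfs and 3 of 9 target genes, beside 18.5% of all genes. In the TA these counts were 1 of 7, 0 of 5, 2 of 10, 3 of 10, 2 of 10 and 2 of 9, beside 24.1%. In the interaction edgeR called 0 genes of the lists, and 3 of 9, 0 of 5, 0 of 11, 1 of 10, 2 of 10 and 1 of 9 were under an unadjusted p of 0.05. Bmp5 was called there by DESeq2 (-0.40, adjusted p = 0.05 after rounding, under the threshold) and, with Bmp8b, by limma-voom.

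Between the muscles, many of the same lists were called. Of 9 BMP ligands tested, 7 were called in WT, 4 higher in the soleus and 3 lower. Bmp2 was higher by 0.55 and Bmp6 by 0.36, whereas Bmp5 (-1.06) and Bmp8b (-0.52) were lower. All 5 activin and myostatin ligands tested were called, with the activin subunits Inhba (1.28) and Inhbb (0.98) higher and Gdf11 (-1.98) and Mstn (-3.61), which encodes myostatin, lower. Acvr1b, a type I receptor of activins and myostatin, was lower in the same libraries.

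Of 11 secreted antagonists, 8 were called in WT, 6 higher in the soleus and 2 lower. Twsg1 (0.50) and Fst, which encodes the activin trap follistatin (1.00), were higher, and Nog, which encodes noggin (-0.33), was lower. Among 10 other receptors and coreceptors, 8 were called, 5 higher and 3 lower. Musk (1.83) and the TGF-β type II receptor Tgfbr2 (0.83) were higher, and Hjv, the coreceptor hemojuvelin (-0.33), and Tgfbr1 (-0.29) were lower.

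Of 10 Smads and Smurfs, 6 were called, with the ubiquitin ligase Smurf1 (0.83) and Smad2 (0.28) higher and the inhibitory Smad6 (-0.66) and the BMP Smad Smad9 (-1.32) lower. Of 9 target genes, 2 were called, Hey1 (0.37) and Wnt11 (-0.28). In ∆Ig3-MuSK mice the counts were 5 of 9 BMP ligands, 5 of 5 activin and myostatin ligands, 9 of 11 antagonists, 6 of 10 other receptors, 5 of 10 Smads and Smurfs and 2 of 9 targets. The genes with the smallest adjusted p there were Bmp2 (0.45), Gdf6 (1.14), Bmp5 (-1.47) and Bmp8a (-2.15) among the BMP ligands, and Inhba (0.97), Inhbb (1.21), Gdf11 (-1.92) and Inha (-1.60) among the activin and myostatin ligands. Among the antagonists they were Fst (1.08), Twsg1 (0.38) and Chrd (-0.36), and among the other receptors Musk (1.87), Tgfbr2 (0.58), Tgfbr1 (-0.27) and Bambi (-0.31). The Smads and Smurfs were led by Smurf1 (0.60), Smad2 (0.29), Smad9 (-1.39) and Smad7 (-0.44), and the targets called were Hey1 (0.32) and Id3 (-0.47). All these values are log2 fold changes, soleus against TA. The shares of these lists can be set beside the 57.5% and 56.1% of all genes called.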

How the data were processed

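Reads were trimmed with Trimmomatic and aligned to mm10 (GRCm38) by the authors, who used GSNAP, and HTSeq gave the raw counts for each gene. The counting mode and annotation release are not given in the sources used here. The deposited tables hold raw counts for 51912 Ensembl gene IDs, 1 table per muscle, with 0 columns of other samples. Symbols were found for 51633 IDs, and coordinates come from GENCODE vM21.

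Groups and replicate numbers came from the labels. The files do not show separate animals. The study gives 1 muscle per animal, without saying whether this holds across TA and soleus. In R 4.3.3 with edgeR 4.0.16, counts were filtered with filterByExpr (minimum count 10, minimum total 15), TMM-scaled and tested with glmQLFit and glmQLFTest, within each muscle for genotype and in 1 fit over 36 libraries for muscle and interaction. A call required a Benjamini-Hochberg adjusted p under 0.05 and at least 1.2-fold. CPM values use TMM factors over 36 libraries, and log2 CPM a prior count of 2. Exact tests ran over 48620 assignments, and correlations of shared label numbers over 100000 permutations within genotype, 2-sided. CPM per kb used the summed exon length.

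Alternatives were DESeq2 1.42.0, voom with sample quality weights in limma 3.58.1, RLE and upper-quartile factors, no filter, a stricter filter (10 counts in each library), no fold minimum, other sets of libraries in the fit, replicate blocks and each library left out in turn. The endothelial-relative values and the shared-number correlations were chosen after seeing the data. The fits were tested on simulated data.

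All 10 members are named. Of the other lists, up to 2 called genes per direction and comparison with the smallest adjusted p are named, and Musk always, except for 1 gene that is not reported here. The 2 genes most like each member have the highest Pearson r. Cldn5, Flt1 and the genes that only DESeq2 or limma-voom called were named after their values were seen. The members and lists were chosen with earlier results of these data known. Total counts were 43492062 to 78660422 per library, and every member had at least 111 counts in each.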

Additional observations from a re-analysis of the deposited data

Results flagged for a closer look

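For each member and group, the highest or the lowest of the 9 libraries was checked for a wide gap to the next one. Of 40 such groups, 4 had one, and chance alone gives about 1 in 20 groups. Acvrl1 in WT soleus replicate 9 stood at 20.6 CPM, above the next library at 17.6. Acvr1b in WT soleus replicate 1 stood at 21.6 CPM, above the next at 16.7, and Rgmb in WT soleus replicate 3 at 22.9 CPM, above the next at 21.1. Acvr2b in WT TA replicate 5 stood at 3.69 CPM, below the next at 7.05. Eng was not among them, although its lowest WT soleus value, 39.5 CPM in replicate 1, lay among the ∆Ig3-MuSK libraries.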

How the results depend on the processing

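Of 390 values of single members under the alternatives other than leaving out 1 library, 370 kept their direction and their side of the threshold. Some of these alternatives used fewer libraries, those of a single genotype or those whose label number occurs in both muscles. The count of members called rose from 1 to 2 in the soleus under DESeq2 (Acvr1 added), from 0 to 1 for the interaction under DESeq2 and under limma-voom (Eng), and from 5 to 8 between the muscles of ∆Ig3-MuSK mice without the fold minimum. Eng in the soleus was called under each of the 8 such alternatives, with adjusted p between 0.00314 and 0.0386. Over all genes the TA count was 3 with edgeR, 237 with DESeq2, 150 with limma-voom and 692 in a single fit over 36 libraries. The soleus count was 185 with edgeR, 489 with DESeq2 and 653 with limma-voom, and the interaction count was 0, 855 and 959. DESeq2 gave 1 member, Bmpr1b, no adjusted p in the interaction. The cause of these differences was not tested.

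With 1 library left out, the number of members called was 0 in the TA in every fit, 0 to 1 in the soleus, 6 to 7 between the muscles of WT, 4 to 5 between those of ∆Ig3-MuSK and 0 to 1 for the interaction, where Eng was called without WT soleus replicate 1, WT TA replicate 9 or ∆Ig3-MuSK TA replicate 3. Acvr2a between the muscles lost its call in 8 of 36 such fits in WT and 5 of 36 in ∆Ig3-MuSK, and under limma-voom in WT (-0.22).

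With 1 library left out, values near 0 also turned, with these ranges of log2 fold change. In the TA these were Bmpr1b (-0.0645 to 0.0601), Acvrl1 (-0.00591 to 0.0697), Acvr2a (-0.0111 to 0.0657) and Eng (-0.0308 to 0.0668). In the soleus they were Bmpr1b (-0.0406 to 0.0343), Bmpr2 (-0.0243 to 0.0226) and Acvr2a (-0.0171 to 0.0460). In the interaction they were Bmpr1b (-0.0439 to 0.0811), Acvr1b (-0.124 to 0.0981) and Acvr2a (-0.0390 to 0.0396).

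The signs that turned were of values near 0 that were not called. Under limma-voom these were Bmpr1b (0.0148), Eng (-0.0143) and Rgmb (-0.00431) in the TA, Bmpr1b (-0.000535) and Acvr2a (-0.00402) in the soleus, and the interactions of Bmpr1b (-0.00391) and Acvr1b (0.0950). The interaction of Acvr2a turned under DESeq2 (0.00759), RLE factors (0.00574) and no filter (0.00449). Bmpr2 in the soleus turned under upper-quartile factors (0.00536), no filter (0.000652) and a single fit (0.00990). Relative to the endothelial markers, an alternative chosen after seeing the data, Eng (-0.0137) and Acvrl1 (-0.0201) turned in the TA, as did Acvrl1 in the soleus (0.0460) and between the muscles of WT (-0.0279).

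Libraries with the same replicate number in both genotypes share only a number, since the correlation of their deviations lay between -0.279 and 0.394. Libraries with the same label number in both muscles correlated at 0.0256 to 0.123 in WT, where 2 of 8 correlated best with their own number, and at 0.0324 to 0.284 in ∆Ig3-MuSK, where 5 of 8 did. With the replicate number as a block, edgeR called 0 members between genotypes for TA libraries and 1 for soleus libraries. The muscle comparisons and the interaction used the shared label number as the block instead. With that block, 6 members were called between the muscles of WT (Acvr2b lost, -0.33, adjusted p = 0.0651). Between those of ∆Ig3-MuSK, 4 were called (Acvr2a under the fold minimum, -0.24). The interaction had 0 members called, and Acvr2a turned there (0.0276).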
